A study of Mus musculus with 6 samples.

Results

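The sodium and calcium channel genes described here are 38 protein-coding genes of the mouse whose symbols begin with Scn and a digit, or with Cacna, Cacnb or Cacng. Genes were matched by name among the 21887 protein-coding genes in the RefSeq annotation of GRCm38. By role they were 9 sodium channel alpha subunits, 3 sodium channel beta subunits, 10 calcium channel alpha1 subunits, 4 alpha2delta, 4 beta and 8 gamma subunits. Chromatin came from mouse neural stem and progenitor cells, taken from E13.5 forebrain, expanded with EGF and FGF and used at an early passage, which had been exposed for 24 h to 10 mM crotonate or to water. CUT&Tag, in which an antibody guides a transposase to the chromatin it binds, was made with antibodies to H3K4me3 and H3K27me3 and with IgG. The labels name no strain, sex or pooling of embryos. Of the 6 libraries, the peak lists of 4 were read, and the 2 IgG libraries were not analysed here. Each mark and treatment had 1 library, so the differences below were not replicated and carry no p-value.

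Voltage-gated sodium and calcium channels open when the membrane is depolarised. Sodium channels carry the upstroke of the action potential, and calcium channels couple electrical activity to transmitter release, contraction and gene expression. In both, a large alpha subunit forms the pore and smaller subunits set its trafficking and gating. Neural progenitors fire few or no action potentials, and most of these genes are known from mature neurons or muscle. H3K4me3 marks promoters that are active or ready for use, chiefly those rich in CpG, whereas H3K27me3 is laid down by Polycomb complexes over silent developmental genes. Promoters that carry both are called bivalent.

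The promoters on which the results below turn are shown first, as the 250 bases before an annotated start from the RefSeq promoter table of GRCm38.p6, with every CpG in capitals. Cacna1i and Scn4b had H3K4me3 at the start after crotonate and none after water, and their promoters are fairly rich in CpG. Scn2b changed in the same way over a promoter with few CpG. Cacna2d3 carried both marks in both treatments, and Scn2a carried neither mark in any list. The Scn2a sequence shown holds 2 CpG, and that of its other annotated start, not shown, holds 9.
Cacna1i, chr15:80286988-80287237, plus strand: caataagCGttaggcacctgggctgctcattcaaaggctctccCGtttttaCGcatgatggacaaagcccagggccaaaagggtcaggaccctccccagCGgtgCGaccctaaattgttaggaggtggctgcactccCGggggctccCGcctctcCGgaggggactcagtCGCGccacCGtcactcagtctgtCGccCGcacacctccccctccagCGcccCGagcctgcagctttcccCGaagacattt
Scn4b, chr9:45138374-45138623, plus strand: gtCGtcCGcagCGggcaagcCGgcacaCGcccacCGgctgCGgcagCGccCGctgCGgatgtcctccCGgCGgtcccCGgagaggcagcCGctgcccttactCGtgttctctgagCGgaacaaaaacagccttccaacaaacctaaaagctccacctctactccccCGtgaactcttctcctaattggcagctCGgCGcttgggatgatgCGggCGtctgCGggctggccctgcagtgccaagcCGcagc
Scn2b, chr9:45117626-45117875, plus strand: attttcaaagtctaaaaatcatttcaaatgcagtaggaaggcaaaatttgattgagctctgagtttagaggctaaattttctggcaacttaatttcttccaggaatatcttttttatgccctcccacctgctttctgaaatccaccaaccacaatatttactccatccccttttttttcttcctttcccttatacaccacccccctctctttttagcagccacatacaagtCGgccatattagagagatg
Cacna2d3, chr14:29721865-29722114, minus strand: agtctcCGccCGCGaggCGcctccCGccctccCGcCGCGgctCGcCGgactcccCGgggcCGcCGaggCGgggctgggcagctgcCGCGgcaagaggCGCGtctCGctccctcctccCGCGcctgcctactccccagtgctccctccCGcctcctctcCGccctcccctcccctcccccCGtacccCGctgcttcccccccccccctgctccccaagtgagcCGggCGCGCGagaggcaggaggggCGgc
Scn2a, chr2:65620519-65620768, plus strand: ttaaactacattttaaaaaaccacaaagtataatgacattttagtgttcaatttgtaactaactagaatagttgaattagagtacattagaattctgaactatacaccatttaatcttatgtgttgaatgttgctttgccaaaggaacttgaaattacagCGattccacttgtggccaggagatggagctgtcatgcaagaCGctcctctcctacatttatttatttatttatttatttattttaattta

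The promoters with H3K4me3 were mostly those with many CpG. The table held 41 annotated starts of 30 members, and Cacna1a, Cacna1g, Cacna1h, Cacna2d4, Cacng1, Cacng4, Scn3a and Scn3b had no entry in it. In the 300-base windows, which run from 250 bases before to 50 bases after the start, the 17 starts with an H3K4me3 peak within 2 kb in both treatments had a median of 35 CpG. Their counts ran from 5 at Cacna1f to 63 at one start of Cacna1d. The 19 starts with no H3K4me3 peak within 2 kb in either treatment had a median of 5 CpG, with 20 at Cacng2 as the highest. All 32851 promoters of the table had a median of 7 CpG. The 5 starts with H3K4me3 after crotonate only were mixed, with 26 CpG at Scn4b, 23 at Cacna1i, 3 at one start of Cacnb1, 2 at Scn2b and 2 at Cacng8. At Scn4b, Cacna1i and Scn2b a peak lay over the start. At Cacnb1 and Cacng8 the nearest peak was 1522 and 1626 bp away. The promoters were also searched on both strands for TTCAGCACC and GGACAGNGC, the left and right parts of the element bound by REST, a repressor of neuronal genes. Neither was found in the 41 member windows, and they occurred in 0.371% and 1.91% of all windows. The absence of these letters from 300 bases says nothing about binding of REST elsewhere in the genes.

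**Figure D1:**
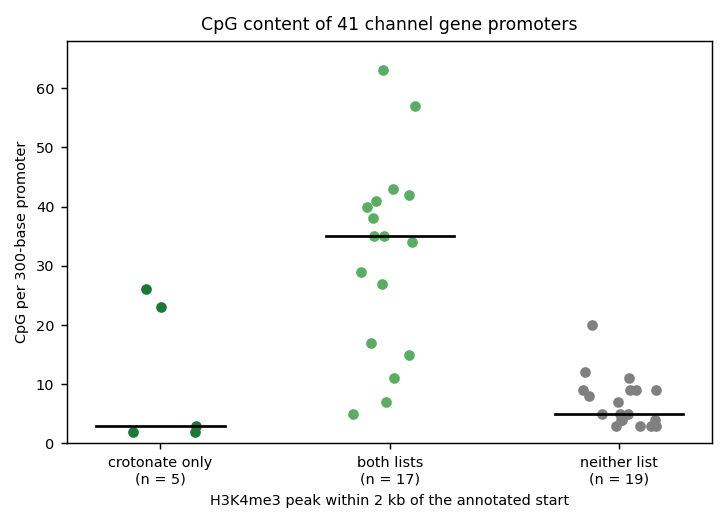
CpG per 300-base promoter (vertical axis) for 41 annotated starts of 30 channel genes, grouped by whether an H3K4me3 peak lay within 2 kb after crotonate only, in both lists or in neither list. Points are starts and bars are medians, which were 3 for 5 starts, 35 for 17 starts and 5 for 19 starts.

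A gene counted as marked if at least 1 bp of a peak lay within 2 kb of one of its annotated ends, and a mark was gained or lost where this held in one treatment only. H3K4me3 lay at an end of 21 of 38 members after crotonate (58.2% of all protein-coding genes) and of 16 of 38 after water (54.1%). H3K27me3 lay at an end of 13 members after crotonate (12.3% of all genes) and of 9 after water (9.45%). Both marks met at the same end of 10 members after crotonate, 26.3% with an exact 95% interval of 13.4 to 43.1 (6.81% of all genes), and of 6 after water, 15.8% with an interval of 6.02 to 31.3 (3.85% of all genes). Intervals are Clopper-Pearson and cover counting error only. H3K4me3 was thus found at 55.3% of the members after crotonate and 42.1% after water, and H3K27me3 at 34.2% after crotonate (19.6 to 51.4) and 23.7% after water (11.4 to 40.2). Those shares for H3K27me3, and for the double mark, are above the shares over all genes. The members are long, with a median of 111 kb against 17.2 kb for all protein-coding genes.

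Crotonate was followed by H3K4me3 at 5 members that lacked it after water, which are Cacna1i, Scn2b, Scn4b, Cacna1e and Cacng8. This is 13.2% of the members (4.41 to 28.1), and 4.18% of all genes gained it. It was lost at 0 of 38 members (0.0503% of all genes), with an upper limit of 9.25% from the exact interval. H3K27me3 was gained at 4 members, Cacna1a, Cacna1e, Cacna1s and Cacng2 (10.5%, with 3.19% of all genes), and lost at 0 (0.384% of all genes), with the same upper limit. All 3 members that carried H3K27me3 alone after water, Cacna1i, Scn2b and Scn4b, came to carry both marks after crotonate. Of all genes with H3K27me3 alone after water, 37.7% gained H3K4me3. With 3 genes the interval runs from 29.2% to 100%, and Scn2b and Scn4b are neighbours. An H3K27me3 domain of 23.7 kb reached both genes after crotonate, at the right end of Scn2b, and no water peak reached both. Of the 19 members with neither mark after water, 2 gained H3K4me3 (10.5%, 1.30 to 33.1), compared with 5.56% of all such genes.

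The estimated depth of the libraries differed between treatments, in opposite directions for H3K4me3 and H3K27me3. From the steps and floors of the peak values, the crotonate libraries were estimated at 1.16 (H3K4me3) and 0.811 (H3K27me3) times the depth of the water libraries, with a background 1.80 times as deep. The lists held 16007 H3K4me3 peaks after crotonate and 13221 after water, and 15879 and 7643 peaks of H3K27me3 in the same order of treatment. With lists of equal length the H3K4me3 gains at members numbered 3, at Scn2b, Scn4b and Cacng8 (2.19% of all genes), and the H3K27me3 gains 2, at Cacna1a and Cacna1e (1.42%). Lists of equal length keep fewer crotonate peaks by construction. The part of depth in the gains, whether kept or dropped there, was not tested.

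**Figure D2:**
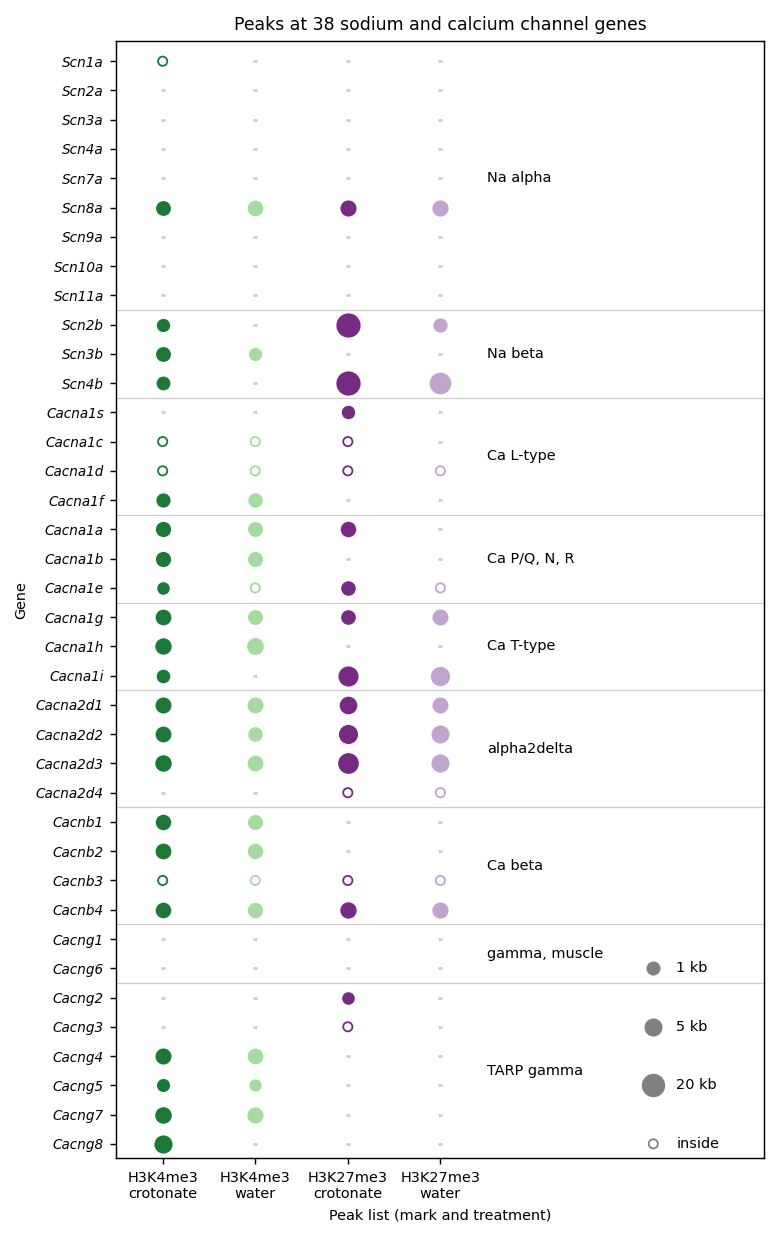
Peaks of each list (columns, by mark and treatment) at the 38 channel genes (rows, by subunit class). Filled circles are peaks within 2 kb of a gene end, with area growing with the width of the widest peak, open circles are genes with peaks inside only, and dashes are genes with none. The 5 genes with a filled dark green circle and no filled light green one gained H3K4me3.

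Sodium channel alpha subunits form the pore, and 7 of the 9 genes had no peak of either mark at an end or inside in any list. Across the members 9 of 38 were without any peak (23.7%, with 33.2% of all genes), and the other 2 were Cacng1 and Cacng6, which encode gamma subunits. The bare genes included Scn2a and Scn3a, channels of central neurons, Scn9a and Scn10a, channels of pain-sensing neurons, and Scn4a, the skeletal muscle channel. Scn7a and Scn11a were the others. Scn3a, Scn2a, Scn1a, Scn9a and Scn7a lie within 1.33 Mb of chromosome 2, from 65457118 to 66784910. That span held 5 H3K4me3 peaks after crotonate and 4 after water, and 2 and 0 of H3K27me3 in the same order. The one that lay at a member was at Scn1a, a channel of inhibitory interneurons, where an H3K4me3 peak of 0.405 kb lay inside the gene at 66409708 to 66410112 after crotonate. It had the authors' fold enrichment of 8.55 and a −log10 q of 12.7, and no water peak met it.

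Scn8a, which encodes the main sodium channel of mature nodes of Ranvier, was the one alpha subunit gene described with H3K4me3 at its start in both treatments. It lies on chromosome 15 from 100869863 to 101045938 and had 38 CpG in the window of that start. After crotonate 2 peaks of 1.46 and 0.489 kb lay there, with fold enrichments of 27.9 and 7.78, and after water 1 peak of 2.12 kb, with 13.3, covered the same stretch. Its 3′ end carried both marks, within 2 kb of an end of the neighbour Fignl2 for H3K27me3. H3K4me3 there spanned 1.10 kb after crotonate and 1.08 kb after water, with fold enrichments of 3.96 and 8.23 and −log10 q of 3.02 and 9.96. H3K27me3 spanned 2.53 kb after crotonate and 2.65 kb after water, with fold enrichments of 6.95 and 5.74. The double mark after crotonate was not counted with −log10 q or fold enrichment of at least 5, or with lists of equal length.

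The 3 sodium channel beta subunit genes described all carried H3K4me3 after crotonate (58.2% of all genes), against 1 after water (54.1%). Such genes encode small membrane proteins with an immunoglobulin-like domain that bind the alpha subunit and also act in cell adhesion. Scn2b, at 45117876 to 45130070, and Scn4b, at 45138624 to 45154155, lie 8.55 kb apart on chromosome 9. At the start of Scn2b, 2 H3K4me3 peaks of 0.628 and 0.267 kb were called after crotonate, with fold enrichments of 12.0 and 4.39, and none after water. At the start of Scn4b a peak of 0.882 kb was called after crotonate with a fold enrichment of 7.23, and a second, of 0.681 kb with 9.37, lay inside the gene. Neither was called after water. Both starts, printed above, lay under these peaks.

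H3K27me3 lay over the Scn2b and Scn4b pair in several peaks in both treatments, with a longer main domain after crotonate. After crotonate that domain of 23.7 kb ran from 45128815 to 45152546, from the right end of Scn2b across the intergenic space and over most of Scn4b, with a −log10 q of 141. After water the main domain of 13.6 kb ran from 45133312 to 45146926, with a −log10 q of 78.7, and shorter peaks of 0.622 to 1.13 kb flanked it on both sides. On the left of Scn2b a peak of 3.75 kb after crotonate stood where one of 0.600 kb was called after water. It ended before the H3K4me3 peaks at the start of Scn2b. A weaker H3K27me3 peak of 1.14 kb, with a −log10 q of 3.21, overlapped those H3K4me3 peaks and met no water peak. In and around Scn4b, 15.9 kb lay under H3K27me3 peaks after crotonate and 11.7 kb after water, and for Scn2b 9.07 and 2.99 kb in that order. The space between the genes lay wholly under the crotonate domain and in part under the water peaks. Over the rest of Scn2b the peaks were separate and short in both treatments.

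Scn3b kept H3K4me3 in both treatments, with a peak of 1.48 kb after crotonate and 0.568 kb after water.

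**Figure D3:**
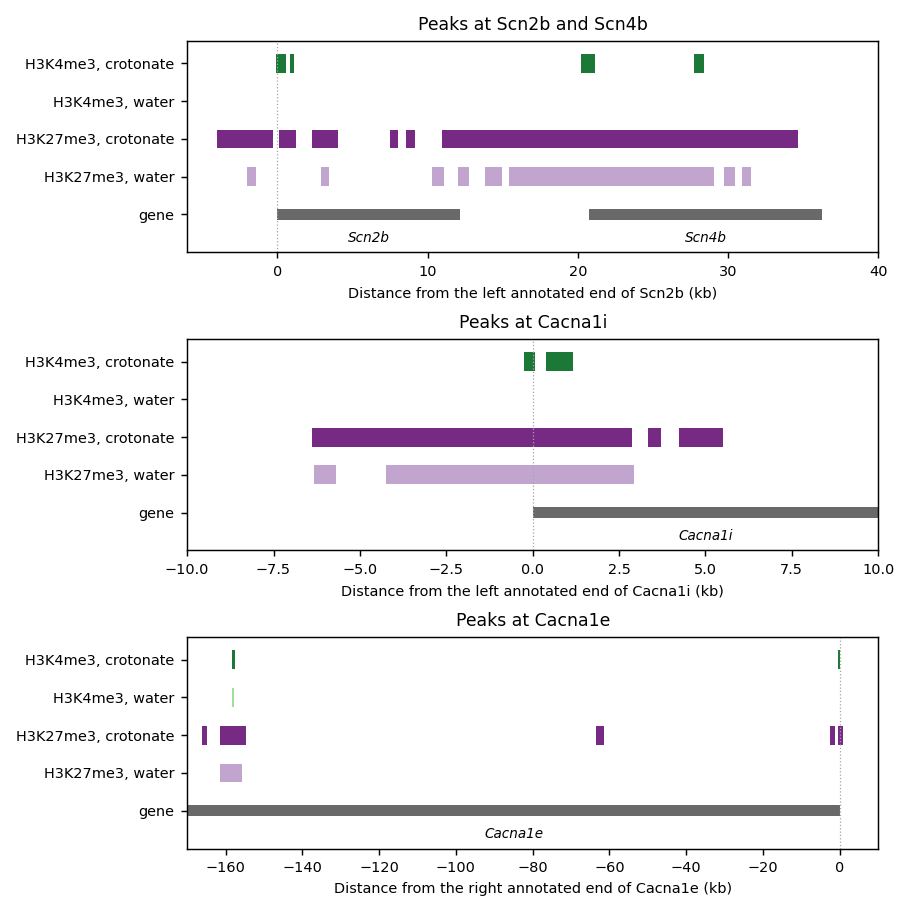
Peaks of the 4 lists (rows, coloured by mark and treatment) and gene spans (grey) at Scn2b and Scn4b, Cacna1i and Cacna1e, against distance in kb from an annotated end. At each gene end shown with H3K4me3 after crotonate, the H3K4me3 row after water is empty, and H3K27me3 lies over or beside the new peak.

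Among calcium channel alpha1 genes, which encode the pore, the T-type group had marks throughout. T-type channels open near the resting potential and support rhythmic firing. Cacna1i, on chromosome 15 from 80287238 to 80398292, carried H3K27me3 over its start, in a peak of 9.24 kb after crotonate with a fold enrichment of 38.6 and of 7.20 kb after water with 24.6. A further short water peak lay at the far edge of the crotonate domain. Inside that domain 2 H3K4me3 peaks of 0.335 and 0.766 kb were called at the start after crotonate, with fold enrichments of 5.81 and 5.61, and none after water. Their −log10 q of 5.14 and 4.85 were far below the list's median of 57.5. At the right end of Cacna1g, on chromosome 11 from 94408391 to 94474400, both marks were present in both treatments. H3K4me3 there measured 2.17 kb after crotonate and 1.55 kb after water, with fold enrichments of 18.2 and 6.59, and H3K27me3 peaks of 1.35 and 1.01 kb after crotonate, with 4.90 and 3.98, lay where 1 peak of 2.45 kb, with 15.4, was called after water. Further short peaks inside the gene brought the covered length to 4.02 kb after crotonate and 2.45 kb after water. Cacna1h carried H3K4me3 alone, 2.80 kb wide after crotonate and 3.27 kb after water.

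The P/Q-, N- and R-type channels, encoded by Cacna1a, Cacna1b and Cacna1e, trigger transmitter release at synapses. Cacna1b had H3K4me3 alone at its start, over 1.74 kb after crotonate and 1.60 kb after water, with fold enrichments of 27.7 and 10.1. Cacna1a carried H3K4me3 at its right end and at points inside in both treatments. H3K27me3 was called at its left end after crotonate only, at 84338150 to 84340119 on chromosome 8, over 1.97 kb with a fold enrichment of 5.92, and 2 further crotonate-only peaks of 2.63 and 1.56 kb lay within the gene.

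Cacna1e gained both marks at its right end. It lies on chromosome 1 from 154390806 to 154884785, and after crotonate its right end held H3K4me3 over 0.387 kb, at a fold enrichment of 6.86, and H3K27me3 peaks of 1.29 and 1.05 kb, at 6.77 and 3.59. None of these was called after water. The annotated start in the promoter table, at 154725920, lies inside the gene, and there both marks were present in both treatments. H3K27me3 covered it over 6.81 kb after crotonate and 5.79 kb after water, and an H3K4me3 peak beside it measured 0.780 and 0.395 kb in that order.

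The L-type channels, whose calcium entry drives muscle contraction and activity-dependent transcription, had 2 genes, Cacna1c and Cacna1d, marked inside and not at the ends. At Cacna1c, the L-type channel of heart and brain on chromosome 6, an annotated start at 119108495 with 57 CpG lay under an H3K4me3 peak of 3.84 kb after crotonate and under one of 2.31 kb after water, with a further water peak of 0.701 kb beside it. A stronger peak inside Cacna1c, of 2.63 kb after crotonate with a −log10 q of 126, lies at the end of Dcp1b, which overlaps the gene. Likewise the strongest H3K4me3 peak inside Cacna1d, of 1.93 kb after crotonate with a −log10 q of 171, lies at the end of Dcp1a and cannot be told apart from a mark of that gene. The start of Cacna1d at 30353486 on chromosome 14, with 63 CpG, had both marks within 2 kb in both treatments. The nearby H3K4me3 peak measured 0.557 kb after crotonate and 0.400 kb after water, and H3K27me3 peaks of 2.59 and 2.16 kb after crotonate and of 2.62 and 1.67 kb after water lay on either side of the start. At Cacna1f, a channel of photoreceptor synapses, the H3K4me3 peak within 2 kb of the start lay at the end of its neighbour Ccdc22. Cacna1s, the skeletal muscle channel, gained H3K27me3 only through a peak of 0.709 kb with a −log10 q of 2.03, which lies within 2 kb of an end of the neighbour Ascl5.

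The alpha2delta subunits, extracellular proteins that bring channels to the membrane and to synapses, included 3 of the 6 members that carried both marks in both treatments. Cacna2d1, Cacna2d2 and Cacna2d3 had them together at the start, and Cacna2d4 had H3K27me3 inside the gene only. Its peaks of 2.20 kb after crotonate and 1.38 kb after water lay within 2 kb of an end of Lrtm2, and its other peaks did not. At Cacna2d3, on chromosome 14 from 28904943 to 29722775, 1 H3K27me3 peak of 10.7 kb after crotonate, with a fold enrichment of 4.78, lay where a peak of 5.07 kb, with 10.1, and another of 1.94 kb were called after water. H3K4me3 there measured 2.89 kb after crotonate and 2.20 kb after water. At Cacna2d2, on chromosome 9 from 107399733 to 107529346, H3K27me3 at the start measured 6.90 kb after crotonate and 4.94 kb after water, and H3K4me3 2.29 and 1.27 kb. Its right end had H3K4me3 of 1.27 kb and H3K27me3 of 2.57 kb after crotonate, where only a 0.314 kb H3K4me3 peak just outside the window was called after water. At Cacna2d1, on chromosome 5 from 15934264 to 16374511, 1 H3K27me3 peak of 4.41 kb after crotonate lay where 2 peaks of 2.45 and 1.77 kb flanked the start after water. H3K4me3 at that start changed little in extent, with 2.45 kb after crotonate and 2.36 kb after water.

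Of the 4 genes of intracellular beta subunits, which bring the pore to the membrane, 3 had H3K4me3 at an end in both treatments. Over all genes the shares were 58.2% after crotonate and 54.1% after water. Cacnb1, Cacnb2 and Cacnb4 carried H3K4me3 there, over 1.95, 2.24 and 2.06 kb after crotonate and 1.63, 1.81 and 1.84 kb after water. The peak of Cacnb1 also lies within 2 kb of an end of the ribosomal protein gene Rpl19. Cacnb4 carried H3K27me3 as well, over 2.81 kb after crotonate and 2.65 kb after water. Cacnb3, on chromosome 15 from 98628436 to 98644536, had its marks at annotated starts that lie more than 2 kb inside its span. There H3K4me3 measured 4.73 kb after crotonate and 1.56 kb after water, and H3K27me3 1.44 and 3.01 kb in that order. This crotonate peak of H3K4me3, the widest inside a member, reached from the start at 98634767 to that at 98632328, which the water peak did not.

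Of the 8 gamma subunit genes 1 carried H3K27me3 at an end after crotonate (12.3% of all genes) and 0 after water (9.45%). Cacng2, Cacng3, Cacng4, Cacng5, Cacng7 and Cacng8 encode partners of AMPA receptors, and Cacng1 and Cacng6 subunits known mainly from muscle. Cacng4, Cacng5 and Cacng7 had H3K4me3 alone at an end in both treatments, over 2.45, 0.561 and 3.02 kb after crotonate and 2.14, 0.293 and 2.62 kb after water. At Cacng8, on chromosome 7 from 3394042 to 3416266, the gained peak of 5.21 kb ended at 3392416, which is before the start. It overlapped a water peak of 2.62 kb further off, so this gain was the outward growth of a peak rather than a new one. The other 4 gains of H3K4me3 and the 4 gains of H3K27me3 came from peaks that met no water peak. Cacng2, whose product is known as stargazin, gained H3K27me3 of 0.391 kb with a −log10 q of 2.15, and Cacng3 had a peak of 0.640 kb inside after crotonate only.

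Where an H3K4me3 peak at a member paired with exactly 1 peak of the other treatment, it was usually wider after crotonate. Of 24 such pairs 22 were wider, with medians of 1.94 kb after crotonate and 1.55 kb after water and a median ratio of 1.23. Over all 12093 pairs 94.5% were wider, with a median ratio of 1.24. The 2 exceptions were Cacna1h, with a ratio of 0.856, and Cacna1f, with 0.888. The largest ratios were 4.05 at the right end of Cacna2d2, 3.04 at Cacnb3 and 2.61 at Scn3b. Width depends on depth, and its part was not tested.

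**Figure D4:**
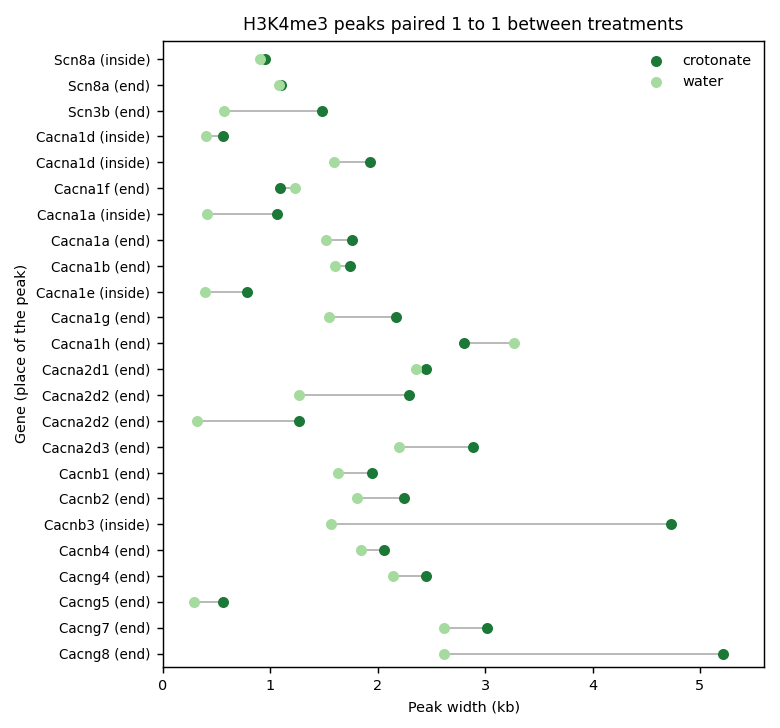
Width in kb (horizontal axis) of the 24 H3K4me3 peaks at channel genes that paired 1 to 1 between crotonate (dark) and water (light), 1 row per pair. In 22 rows the dark point lies to the right.

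H3K27me3 peaks formed fewer such pairs. Of 16 pairs at members 12 were wider after crotonate, with medians of 2.18 kb after crotonate and 1.38 kb after water and a ratio of 1.35, and over all 3987 pairs the share was 78.6% and the ratio 1.30. New peaks also lay inside the genes. After crotonate 49 H3K27me3 peaks lay inside members, away from the ends, and 36 of them met no water peak, in 11 members. Over all protein-coding genes 3447 of 5011 such crotonate peaks met no water peak, a similar share. After water 15 lay inside, and each met a crotonate peak. Peaks in the crotonate list only came to 6.06 per Mb of member interior, against 3.55 per Mb for the 17673 protein-coding genes long enough to have an interior. For H3K4me3 the same quantity was 1.52 per Mb in members and 1.28 per Mb in those genes. The new inside peaks of H3K27me3 were narrow, with a median width of 0.568 kb and a median −log10 q of 3.21. Over the whole crotonate list of H3K27me3 the medians were 0.828 kb and 4.16. The alternative thresholds and lists of equal length were not tried on the inside peaks. Cacna1d and Cacna2d1 held 7 each, Cacna2d2 5, Cacna1i 4, Cacna1g 3, and Cacna1a, Cacna1c, Cacna1e and Scn2b 2 each, and Cacnb4 and Cacng3 had 1 each. Those of H3K4me3 numbered 9, with 2 at Cacna1g and 1 each at Cacna1a, Cacna1d, Cacna1h, Cacnb1, Cacng8, Scn1a and Scn4b.

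**Figure D5:**
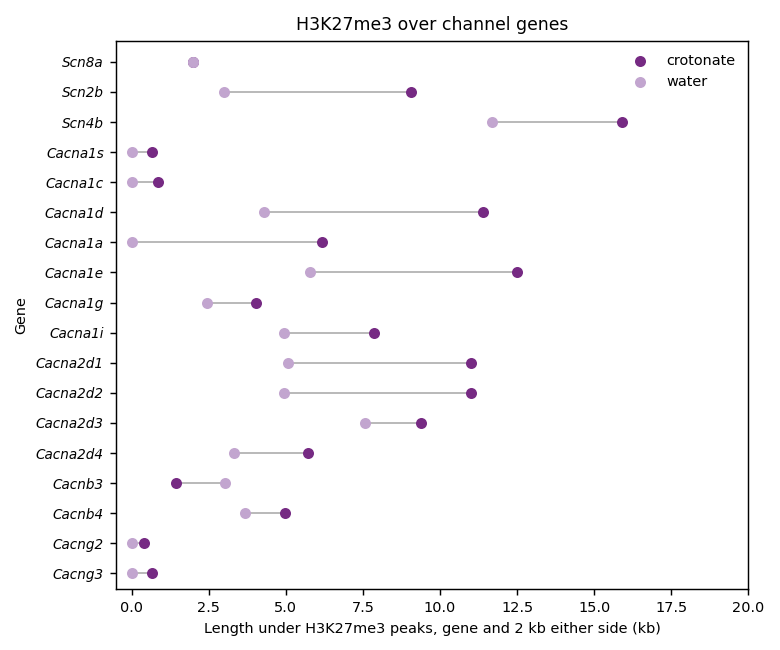
Length in kb under H3K27me3 peaks within each gene and 2 kb either side after crotonate (dark) and water (light), for the channel genes with any. Cacnb3, with 1.44 kb after crotonate and 3.01 kb after water, lies lower after crotonate, Scn8a is at 2.00 kb in both, since both its peaks run past the edge of the 2 kb counted, and the others are higher after crotonate.

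Among lists of genes that work with these channels or are related to them, H3K4me3 was gained at 0 to 3 genes each, with 4.18% of all genes gaining it. It lay at an end of 58.2% of all genes after crotonate and of 54.1% after water. Of 15 sodium channel partners and relatives, such as the ankyrins that anchor channels, H3K4me3 lay at an end of 12 in both treatments, with no gain or loss. H3K27me3 was gained at 3 of them (3.19% of all genes), Nfasc, Fgf11 and Sptbn4, the strongest being that at Nfasc, a node adhesion protein, with 1.15 kb and a fold enrichment of 5.90. The peaks at Fgf11 and Sptbn4 were weak, with −log10 q of 2.16 and 1.77. Of 16 calcium channel partners, 3 gained H3K4me3, at Rimbp2, which ties channels to release sites, Camk2a, the calmodulin kinase of synapses, and Stac3, a muscle adaptor. The peak at Rimbp2 measured 0.924 kb with a fold enrichment of 15.3. In the same list Cabp1 and Stac gained H3K27me3 (3.19% of all genes). Their peaks were weak, of 0.338 and 0.499 kb with −log10 q of 1.65 and 1.60. Of 17 other calcium channel genes, 1 gained H3K4me3, Ryr1, and 0 changed in H3K27me3. All 7 genes of the REST repressor list carried H3K4me3 alone in both treatments. With or without H3K27me3, it lay at 58.2% and 54.1% of all genes after crotonate and water.

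Markers of the labelled cell type mostly carried H3K4me3, and so did those of neurons. Of all genes 58.2% carried it at an end after crotonate and 54.1% after water. Of 6 progenitor markers 5 carried H3K4me3 at an end without H3K27me3 in both treatments, namely Sox2, Nes, Vim, Fabp7 and Hes1, while Pax6 had no peak at its annotated ends. Of 5 neuronal markers 4 carried H3K4me3 in both treatments, and Dcx had neither mark. H3K27me3 lay at an end of Rbfox3 in both treatments and of Syt1 after crotonate only. Astrocyte and oligodendrocyte markers had H3K4me3 at 1 of 5 after crotonate, Mbp, and at 0 of 5 after water, and microglial, vessel and fibroblast markers likewise at 1 of 5, Col1a1, and at 0 of 5. Muscle markers had H3K4me3 at 0 of 5 in either treatment, and H3K27me3 at Myod1 in both treatments and at Ckm after crotonate only. These marks do not measure expression, and the share of differentiated cells in each culture was not tested.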

How the data were processed

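CUT&Tag peak lists of 4 libraries were used, 1 per mark and treatment. The submitters' processing notes name the build GRCm38 and the tools MACS2 2.2.7.1, Bowtie2 2.4.1, Picard 2.22.0 and SAMtools 1.10. Settings and background library were not given in the sources used here. Each deposited list gives, per peak, position, length, pileup (a signal scaled per library), −log10 of p and q, and fold enrichment (a linear ratio), per the file headers. These are the authors' own values and describe peaks within 1 list. All peaks had q under 0.05.

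Genes came from the RefSeq table of GRCm38.p6, which gives spans without strand, so both ends were read, with 2 kb either side and an overlap of at least 1 bp. This includes 3′ ends, and a peak can belong to a neighbour: 10 members had a peak within 2 kb of an end of another protein-coding gene. Starts and strands came from the RefSeq promoter table for 30 of 38 members. Of the 40 genes that match the name rule, 2 are not reported here and enter no count of members. No peak-based value took part in choosing the members, but the members, lists and comparisons were chosen with earlier results of these data known. Every member that gained or lost a mark, carried both, or held a peak inside in 1 list only was to be named, with the strongest 4 per mark. Fragment totals are not given; the relative depth was estimated from the pileup step and the lowest implied background per bp, which assumes that 1 was added to signal and background in the fold, that libraries were scaled to their background and that fragments are as long as the shortest peak. Analysis used Python 3.11.15, numpy 2.4.6, pandas 2.3.3, scipy 1.17.1 and matplotlib 3.10.9. Overlap code was tested on simulated data. The alternatives tried were other peak thresholds, lists of equal length, more overlap, other windows and annotated starts.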

Additional observations from a re-analysis of the deposited data

How the results depend on the processing

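Of 96 recomputed values, 89 stayed within 1.5 times the reported count (or within 10% for widths) and 7 did not. Loss of H3K4me3 stayed at 0 members under every alternative run. With lists of equal length, 3 members gained H3K4me3 and 2 gained H3K27me3. This alternative keeps fewer crotonate peaks by construction. Gains of H3K27me3 numbered 2 (Cacna1a and Cacna1e) with −log10 q of at least 5, with a fold enrichment of at least 5 and with a window of 1 kb, which drop the weak peaks at Cacna1s and Cacng2. At annotated starts of the 30 members in the promoter table, a setting added after seeing the data, 2 members gained H3K27me3, Cacna1s and Cacng2. Losses of H3K27me3 numbered 2 with a fold enrichment of at least 5, at Cacna1g and Cacna2d3. With that threshold H3K27me3 lay at 9 members after crotonate and 9 after water, so the reported excess of 13 over 9 was not seen. Both marks at the same end numbered 7 after crotonate and 6 after water, both there and with lists of equal length (reported as 10 and 6). With the threshold on fold enrichment Cacna1a was counted as a further gain of H3K4me3 (6 in all), since its water peak has a fold enrichment of 4.93. Median widths of paired H3K4me3 peaks were unchanged to within 10% with lists of equal length (22 pairs) and with a reciprocal overlap of 50% (22 pairs). No paired analysis was possible because each mark and treatment had 1 library. Fragment depth is not stated, so a peak missing from a list can lie just under its threshold.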
